A study of Mus musculus with 20 samples.

Results

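The macrophage and myeloid genes are a fixed list of 35 genes that mark macrophages and related phagocytes. They were matched by symbol to the gene IDs of the count tables, and all 35 were found among 45318 IDs and passed the filter on low counts. The list was not chosen from a measured value of these libraries, although earlier results of the same data were known when it was drawn up. It holds receptors (Csf1r, Cx3cr1), the transcription factor Spi1, 4 pan-leukocyte genes, 8 surface and lineage markers, 5 scavenger receptors and phagosome genes, 5 Fc receptors and signaling adaptors, 3 pattern recognition receptors, the 3 C1q chains, 2 oxidase subunits and 2 lysozymes.

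Macrophages depend on CSF1, a growth factor that signals through the receptor CSF1R, and on the transcription factor PU.1, which Spi1 encodes. They clear dead cells and debris through scavenger, Fc and complement receptors and are the main source of C1q in many tissues. In mammary tumors of mice they are among the most abundant leukocytes, and in the normal gland they accompany the ducts and the fat pad.

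Polyadenylated RNA came from 20 mouse mammary samples of the strain FVB, whose ages the labels used here do not give. WT organoids, pieces of normal gland grown for 6 days in matrigel with FGF2, gave 3 libraries, and all other samples came from genotypes that form mammary tumors. MMTV-PyMT tumors, in which the mouse mammary tumor virus promoter drives the polyoma middle T antigen in mammary epithelium, were sampled as 30 µm cryosections (3 libraries), as organoids on the day of preparation (day 0, 3 libraries) and as organoids after 6 days (3 libraries titled day 6, and 2 with no day in the title but the same culture time, called undated here). MMTV-Neu-NDL tumors, driven by an activated form of the receptor Neu (ErbB2), were sampled as organoids after 6 days (3 libraries). MMTV-Cre;Flox-Neo-Neu-NT tumors, in which Cre opens another activated Neu allele, were sampled as cryosections (3 libraries). Sections hold the whole tissue, while organoids are epithelial fragments that can carry other cells along. In every comparison of sections with WT organoids, tissue, culture and genotype therefore differ together and cannot be told apart.

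Between 17478357 and 48341438 reads were counted on genes per library. The labels do not state that replicates came from separate animals, so a p-value here sets a difference against a spread between libraries that may be technical. Summed over 8 epithelial markers, every library had 3550 to 11418 CPM, with Epcam between 897 and 2218. CPM is a gene's reads relative to all reads counted in its library, scaled by edgeR's TMM factors. Single markers were less even. Cdh1 was lower in Neu-NDL than in cultured PyMT organoids (log2 fold change -0.85, edgeR adjusted p = 0.0466). Against WT, Krt5 was lower (-6.61, adjusted p = 0.0266) and Cldn7 higher (1.03, adjusted p = 0.0208) in Neu-NT sections. The mean log2 level of the 8 markers was 9.52 to 9.70 in WT organoids and 5.70 to 9.58 in Neu-NT sections. The library titled PyMT organoids day 6 replicate 3 goes against its label. Over 18663 genes its nearest library was PyMT tumor section replicate 3, at a root mean square difference of 0.462 (log2 CPM), the smallest of any pair in the series, while the other day 6 libraries stood at 1.56 and 1.81. Neu-NT tumor section replicate 3 was nearer to PyMT tumor section replicate 1 (1.31) than to its own group (1.46). Counts of members called that rest on either library are given with and without it, and values of single members in part. Tests of single genes outside the 35 members are given only with both libraries in.

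Summed over the members, levels were lowest in cultured PyMT organoids and in WT organoids, intermediate in day 0 PyMT organoids, and highest in tumor sections and in Neu-NDL organoids, which had also been cultured for 6 days. The sums over the 35 members were 232 to 396 CPM in WT organoids, 1242 to 1805 in PyMT sections, 627 to 861 at day 0, 113 to 310 in 4 of the 5 PyMT libraries cultured for 6 days, 826 to 3423 in Neu-NDL organoids and 1000 to 3298 in Neu-NT sections. The library titled day 6 replicate 3 stood at 1116 CPM, within the day 0 to section range. Cd14 and Lyz2 weigh heavily in these sums. Without them the sums were 81.4 to 173 CPM in WT organoids and 40.9 to 68.3 CPM in the 4 cultured PyMT libraries, without overlap. Every other library then had at least 391 CPM. In bulk RNA fewer cells of a type and less RNA per cell cannot be told apart, and this applies to each level below. The heat map shows that the contrast between cultured PyMT and cultured Neu-NDL organoids runs through nearly every role, with Cd14 as the exception.

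**Figure D1:**
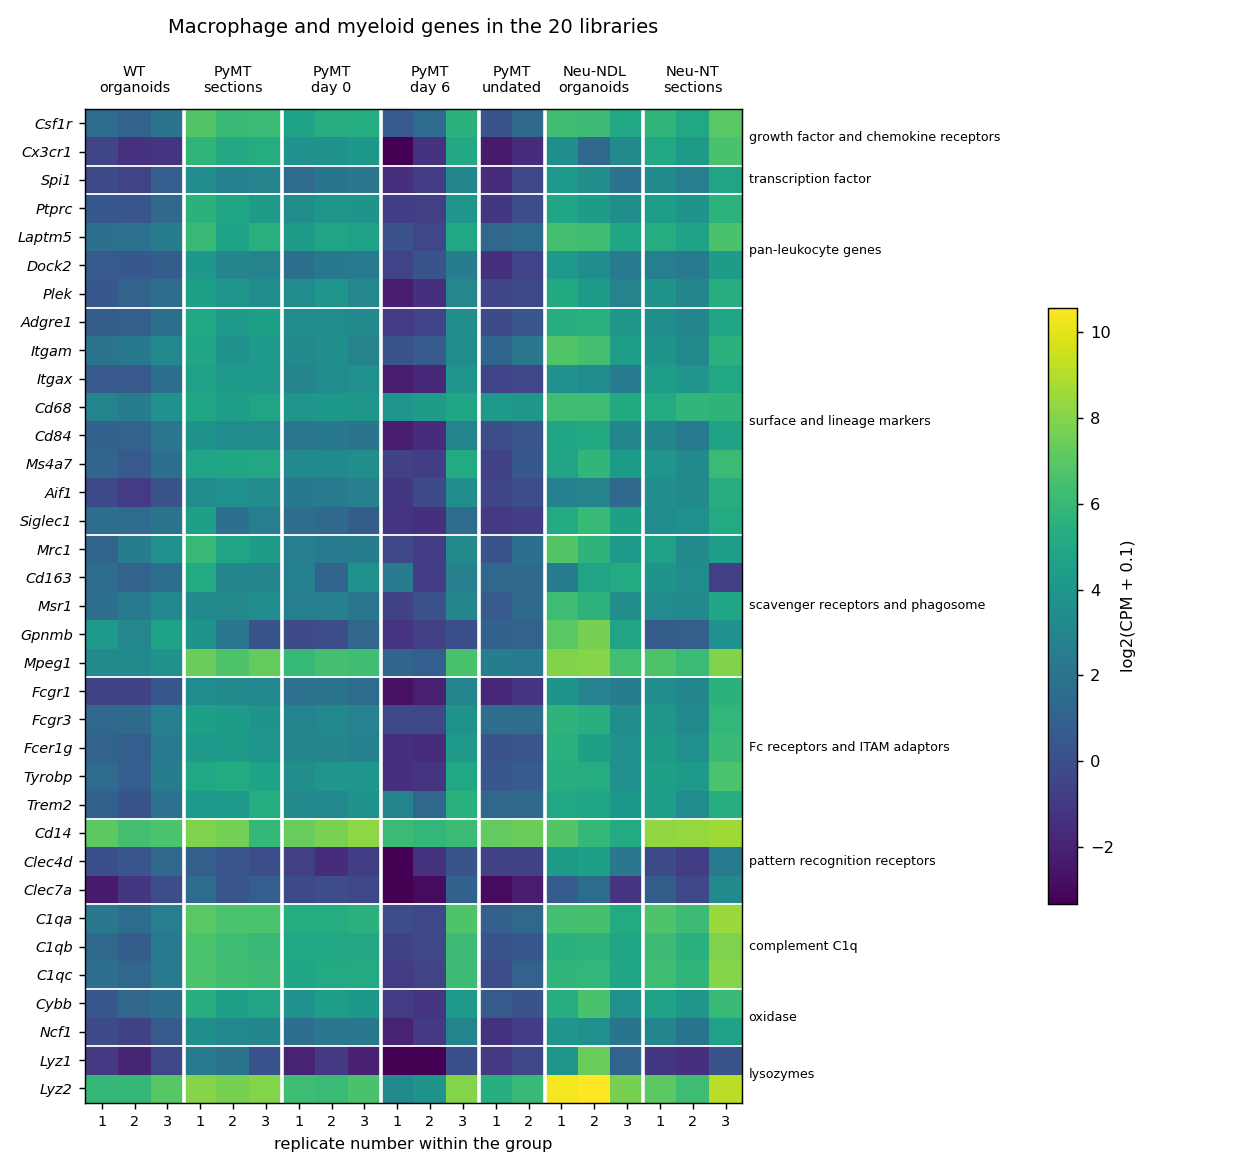
Each row is a member, grouped by role (right), each column a library, and the color is log2(CPM + 0.1). The cultured PyMT columns are dark for most members, except the library titled day 6 replicate 3, whose summed member level was 1116 CPM against 113 to 310 CPM in the other 4.

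Against WT organoids, 11 of the 35 members were higher in Neu-NDL organoids and none was lower, where 2.47% of all 18698 genes tested were higher. In PyMT tumor sections 15 members were higher and none lower (6.45% of all genes higher). Neu-NT tumor sections had 25 members higher and none lower (10.5% of all genes higher). The 6 day PyMT organoids, day 6 and undated at equal weight, had no member higher (1.4% of all genes) and 1 lower (2.49% of all genes), which was Gpnmb. Calls are adjusted p-values under 0.05 from edgeR's quasi-likelihood test with Benjamini-Hochberg adjustment over all genes. Median log2 fold changes of the members were 3.52, 3.07, 3.45 and 0.08 in that order, and those of all genes were 0.02, 0.03, 0.03 and 0.01. The 0.08 of the 6 day PyMT organoids rested on the library titled day 6 replicate 3: without it the median was -1.73, with 15 members lower (6.93% of all genes) and none higher, and with the undated organoids alone it was -1.25. The 4 comparisons share the same WT libraries.

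**Figure D2:**
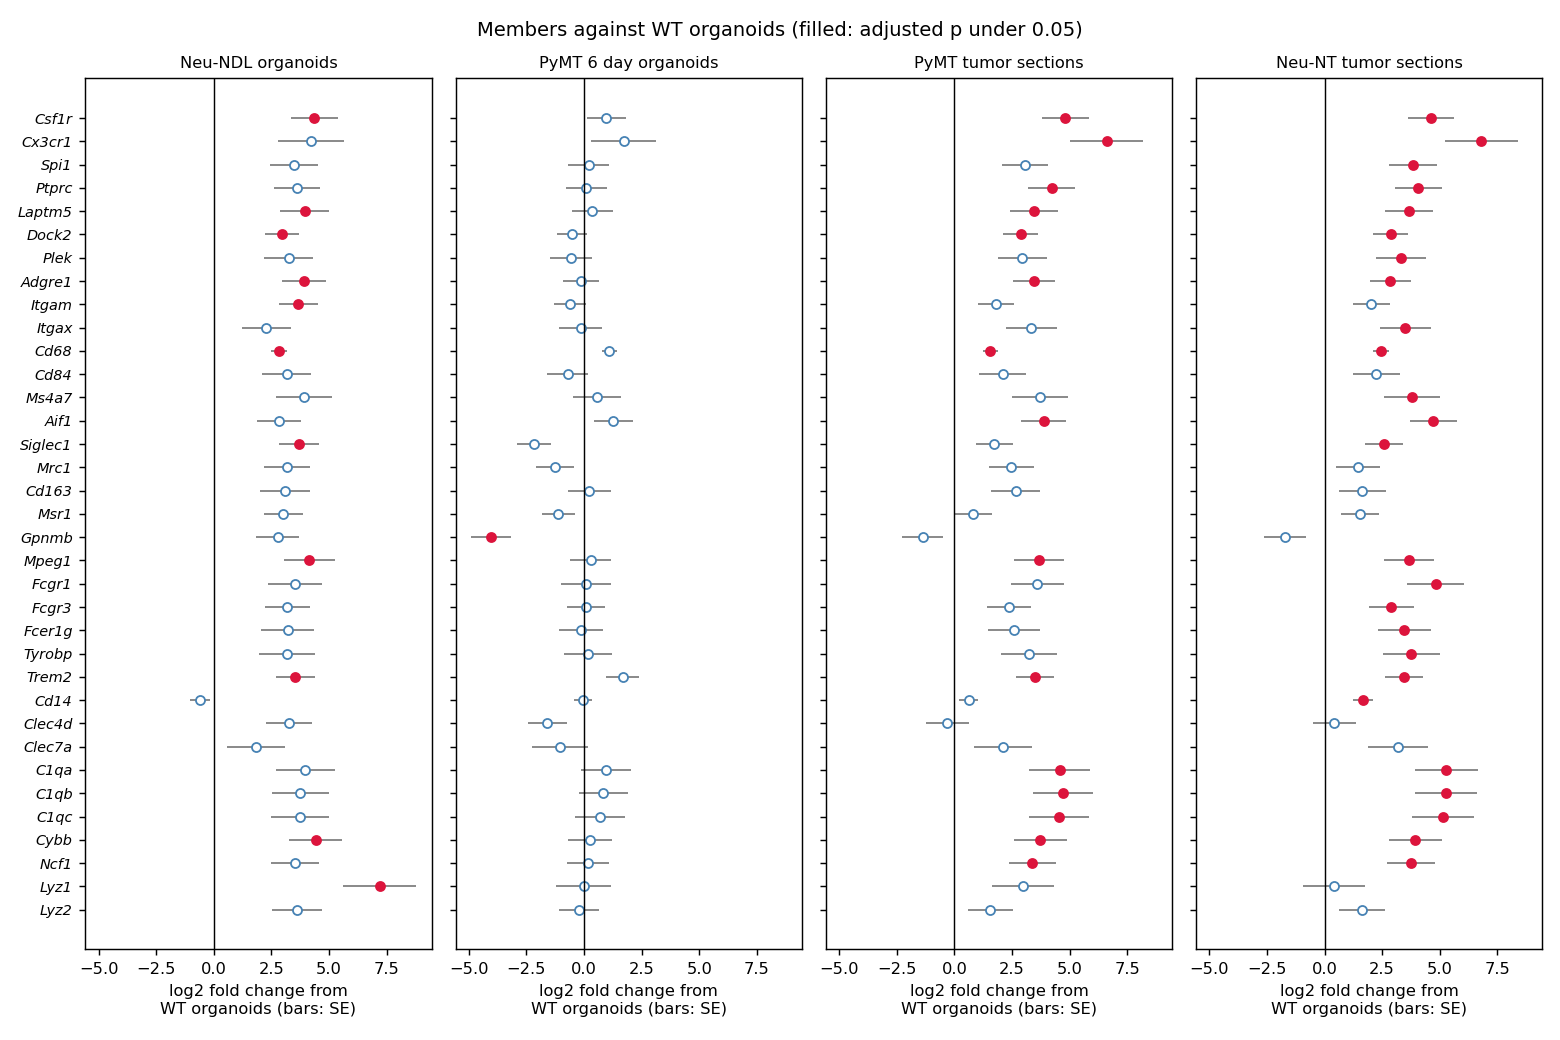
Log2 fold change of each member from WT organoids, with its SE, in 4 comparisons that share the WT libraries; filled points have an adjusted p under 0.05. In Neu-NDL organoids and both kinds of sections most members lie above 0, with medians of 3.52, 3.07 and 3.45, and in 6 day PyMT organoids they lie around 0, with a median of 0.08 that was -1.73 without the library titled day 6 replicate 3.

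The spread behind these counts was wide. At an unadjusted p under 0.05, 33, 28, 28 and 4 members differed from WT in Neu-NDL organoids, PyMT sections, Neu-NT sections and 6 day PyMT organoids. Of all genes 20.8, 30.3, 33.5 and 20.6% did so, which the 4 of 35 members (11.4%) in 6 day PyMT organoids did not reach. WT replicate 3 had the highest level of its group in 33 of the 35 members, at a median of 2.06 times the mean of the other 2. Leaving out any of the 3 WT libraries, or Neu-NDL replicate 2, left 1 of the 11 Neu-NDL calls (Cd68 each time), and without Neu-NDL replicate 3 there were 4 (Csf1r, Itgam, Cd68 and Lyz1). Calls fell among all genes too: 0.619 to 0.984% were called in either direction in these fits, against 4.52% with every library. For PyMT sections, 1, 0 and 3 calls were left without WT replicates 1, 2 and 3, 3 without section replicate 1 and 6 without section replicate 3. Of all genes 2.83 to 4.77% were called in either direction in these fits, against 12.5% with every library. Day 6 replicate 3 and Neu-NT section replicate 3 enter neither of these comparisons except through the shared estimate of the spread. With both left out, 33 members were higher in Neu-NDL organoids (8.4% of all genes) and 29 in PyMT sections (14.2% of all genes), all the calls above among them. For Neu-NT sections, 6, 4 and 11 calls were left without WT replicates 1, 2 and 3. There 11.7, 9.85 and 10.6% of all genes were called in either direction, against 19% with every library. Without Neu-NT replicate 3 the median log2 fold change was 2.43 and 11 calls were left (10.9% of all genes higher). These were Csf1r, Cx3cr1, Ptprc, Cd68, Aif1, Fcgr1, Trem2, Cd14 and the 3 C1q genes, with Gpnmb then lower. The calls that held when each library was left out in turn were Cd68 in Neu-NDL organoids, Csf1r, Cx3cr1, Cd68 and Aif1 in Neu-NT sections, and none in PyMT sections.

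Csf1r, the receptor through which CSF1 keeps macrophages alive, stood at 2.92, 2.07 and 3.90 CPM in the 3 WT organoid libraries. It reached 116, 64.7 and 69.9 CPM in PyMT sections, 26.8, 40.5 and 38.7 at day 0, and 55.3, 31.9 and 131 in Neu-NT sections. Neu-NDL organoids had 78.4, 73.8 and 31.4 CPM. After 6 days of culture PyMT organoids had 1.46, 2.77 and 48.2 CPM (day 6) and 1.07 and 2.69 CPM (undated). Neu-NDL organoids and both kinds of sections were above WT in every library, and only the library titled day 6 replicate 3 set the 6 day PyMT organoids above it. The log2 fold changes from WT were 4.37 (SE 1.01, adjusted p = 0.0249) in Neu-NDL organoids, 4.82 (SE 1.03, adjusted p = 0.0123) in PyMT sections and 4.62 (SE 1.02, adjusted p = 0.00672) in Neu-NT sections.

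Cx3cr1, the receptor for fractalkine on monocytes and resident macrophages, had the largest rise among the members called in each kind of section. It was at 0.645, 0.299 and 0.338 CPM in WT organoids, 54.9, 33.1 and 38.5 in PyMT sections and 30.6, 19.1 and 95.2 in Neu-NT sections. The log2 fold changes were 6.61 (SE 1.58, adjusted p = 0.0179) and 6.81 (SE 1.59, adjusted p = 0.00892). Neu-NDL organoids, at 11.6, 2.61 and 9.91 CPM, were above WT and below all 6 section libraries. Day 0 organoids had 12.9, 13.8 and 16.7 CPM, and the 6 day PyMT organoids had 0, 0.307 and 33.2 CPM (day 6) and 0.101 and 0.258 (undated). The 0 in day 6 replicate 1 allows up to 0.158 CPM at its depth (3 counts, before TMM scaling, counting error only). Csf1r and Cx3cr1 overlap other annotated genes, and the strand setting of the counting is not given in the sources used here.

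Spi1 encodes PU.1, the transcription factor without which macrophages do not form. Its level was 0.749, 0.619 and 1.66 CPM in WT organoids, 18.1, 11.7 and 3.85 in Neu-NDL organoids, 11.1, 6.88 and 7.33 in PyMT sections and 10.1, 5.95 and 27.5 in Neu-NT sections. It was at 2.81, 4.14 and 4.44 CPM at day 0 and at 0.235 to 0.663 CPM in 4 of the 6 day PyMT libraries, with 8.11 CPM in the library titled day 6 replicate 3. The libraries of WT organoids lay below all Neu-NDL, section and day 0 libraries. The rise passed the test in Neu-NT sections (log2 fold change 3.85, SE 1.04, adjusted p = 0.0185) and missed it in Neu-NDL organoids (3.48, SE 1.03, adjusted p = 0.0635) and PyMT sections (3.07, SE 1.01, adjusted p = 0.0566). Without Neu-NT section replicate 3 it missed it there too (2.99, SE 1.03, adjusted p = 0.0506).

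Because PU.1 is known to act through DNA motifs with the core GAGGAA, the promoters of the members were read for these letters on both strands (the other strand reads TTCCTC). RefSeq (GRCm38.p6) gave a promoter entry for 27 of the 35 members. In the 100 bases before the start, 11 of the 27 (40.7%) held the core, against 11.2% of 27025 genes. In 250 bases the shares were 55.6% and 25.9%. The longer form GAGGAAGT, which contains the core, was in none of the 27 members within 100 bases (1.35% of all genes). A match is only these letters in a window, and no match says nothing about the factor. The 100 bases of 5 members from 4 roles are printed to show where the core, in capitals, lies before the start, each 5′ to 3′ along its gene.
Itgam, chr7:128062540-128062639, plus strand: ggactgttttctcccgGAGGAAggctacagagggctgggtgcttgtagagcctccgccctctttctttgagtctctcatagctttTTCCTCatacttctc
Fcgr1, chr3:96293970-96294069, minus strand: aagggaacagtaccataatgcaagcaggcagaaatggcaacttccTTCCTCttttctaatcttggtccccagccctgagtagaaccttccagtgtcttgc
Trem2, chr17:48346301-48346400, plus strand: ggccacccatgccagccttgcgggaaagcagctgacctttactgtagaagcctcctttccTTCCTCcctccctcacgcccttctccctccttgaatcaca
Dock2, chr11:34783906-34784005, minus strand: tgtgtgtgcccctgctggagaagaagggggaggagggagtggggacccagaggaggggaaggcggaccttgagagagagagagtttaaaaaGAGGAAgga
C1qb, chr4:136886201-136886300, minus strand: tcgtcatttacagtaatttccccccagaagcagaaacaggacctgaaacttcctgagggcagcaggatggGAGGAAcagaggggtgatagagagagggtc
Itgam carries the core on each strand, 84 and 15 bases before the start, and in the other 4 it begins 9 to 55 bases before it.

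The pan-leukocyte genes Ptprc (the phosphatase CD45), Laptm5 (a lysosomal protein of blood cells), Dock2 (an activator of Rac in leukocytes) and Plek (pleckstrin) followed Csf1r. Laptm5 was at 3.28, 3.59 and 5.75 CPM in WT organoids and at 88.4, 78.7 and 28.6 CPM in Neu-NDL organoids. PyMT sections had 65.4, 26.5 and 45.2 CPM, day 0 organoids 18.8, 27.4 and 25.0, and Neu-NT sections 38.6, 25.9 and 96.2. The 6 day PyMT organoids had 0.977, 0.683 and 32.4 CPM (day 6) and 2.31 and 2.80 CPM (undated). Laptm5 and Dock2 rose from WT in Neu-NDL organoids, Ptprc, Laptm5 and Dock2 in PyMT sections, and all 4 genes in Neu-NT sections. Without Neu-NT section replicate 3, only Ptprc of the 4 passed in Neu-NT sections. For Laptm5 the log2 fold changes were 3.96 (SE 1.06, adjusted p = 0.0451), 3.45 (SE 1.04, adjusted p = 0.0416) and 3.67 (SE 1.05, adjusted p = 0.0237).

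Among the 8 surface and lineage markers, 4 rose in Neu-NDL organoids (Adgre1, Itgam, Cd68 and Siglec1), 3 in PyMT sections (Adgre1, Cd68 and Aif1) and 6 in Neu-NT sections (Adgre1, Itgax, Cd68, Ms4a7, Aif1 and Siglec1). Without Neu-NT section replicate 3, only Cd68 and Aif1 of these passed in Neu-NT sections. Adgre1 encodes F4/80, the most used surface marker of mouse macrophages, and Itgam and Itgax encode CD11b and CD11c, the alpha chains of leukocyte integrins. Adgre1 went from 1.63, 1.71 and 3.44 CPM in WT to 40.7, 45.3 and 16.1 CPM in Neu-NDL organoids (log2 fold change 3.92, SE 0.94, adjusted p = 0.0288). Itgam went from 3.90, 4.72 and 8.88 CPM to 110, 89.9 and 22.0 CPM (3.67, SE 0.85, adjusted p = 0.0254). Siglec1, the sialic acid receptor CD169, went from 3.15, 2.84 and 3.93 CPM to 35.2, 68.7 and 23.8 CPM (3.68, SE 0.87, adjusted p = 0.0278). In each of these 3 genes the Neu-NDL libraries lay above all WT libraries. Siglec1 was uneven in PyMT sections, at 23.7 CPM in replicate 1 and 3.22 and 5.98 CPM in replicates 2 and 3. Aif1 encodes the calcium-binding protein IBA1, a macrophage and microglia marker. It rose from 0.448 to 1.14 CPM in WT organoids to 10.2 to 13.1 CPM in PyMT sections (3.87, SE 0.98, adjusted p = 0.0224) and 9.37 to 40.1 CPM in Neu-NT sections (4.72, SE 1.02, adjusted p = 0.00589), and was at 2.55 to 7.17 CPM in Neu-NDL organoids (2.83, SE 0.94, adjusted p = 0.0931). Of the other markers, Ms4a7, Cd84 (a SLAM family receptor) and Itgax also had all Neu-NDL libraries above all WT libraries and did not pass there.

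Cd68, a lysosomal glycoprotein, did not follow the other surface markers in PyMT organoids. It was at 7.62, 5.81 and 13.1 CPM in WT organoids, 30.0, 21.1 and 27.4 in PyMT sections, and 15.0, 17.1 and 16.0 at day 0. After 6 days of culture PyMT organoids had 15.2, 19.6 and 30.0 CPM (day 6) and 17.2 and 16.0 CPM (undated), and Neu-NDL organoids 78.5, 75.2 and 34.8 CPM. Neu-NT sections had 36.0, 56.5 and 51.7 CPM. The cultured PyMT libraries other than replicate 3 were thus close to the day 0 level for Cd68, while Ptprc stood at 0.369 to 0.884 CPM in them and at 12.1 to 16.2 CPM at day 0. Cd68 had the smallest adjusted p of the members in Neu-NDL organoids (log2 fold change 2.83, SE 0.35, adjusted p = 0.00218) and in Neu-NT sections (2.44, SE 0.35, adjusted p = 0.00051), and also rose in PyMT sections (1.57, SE 0.34, adjusted p = 0.0129).

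**Figure D3:**
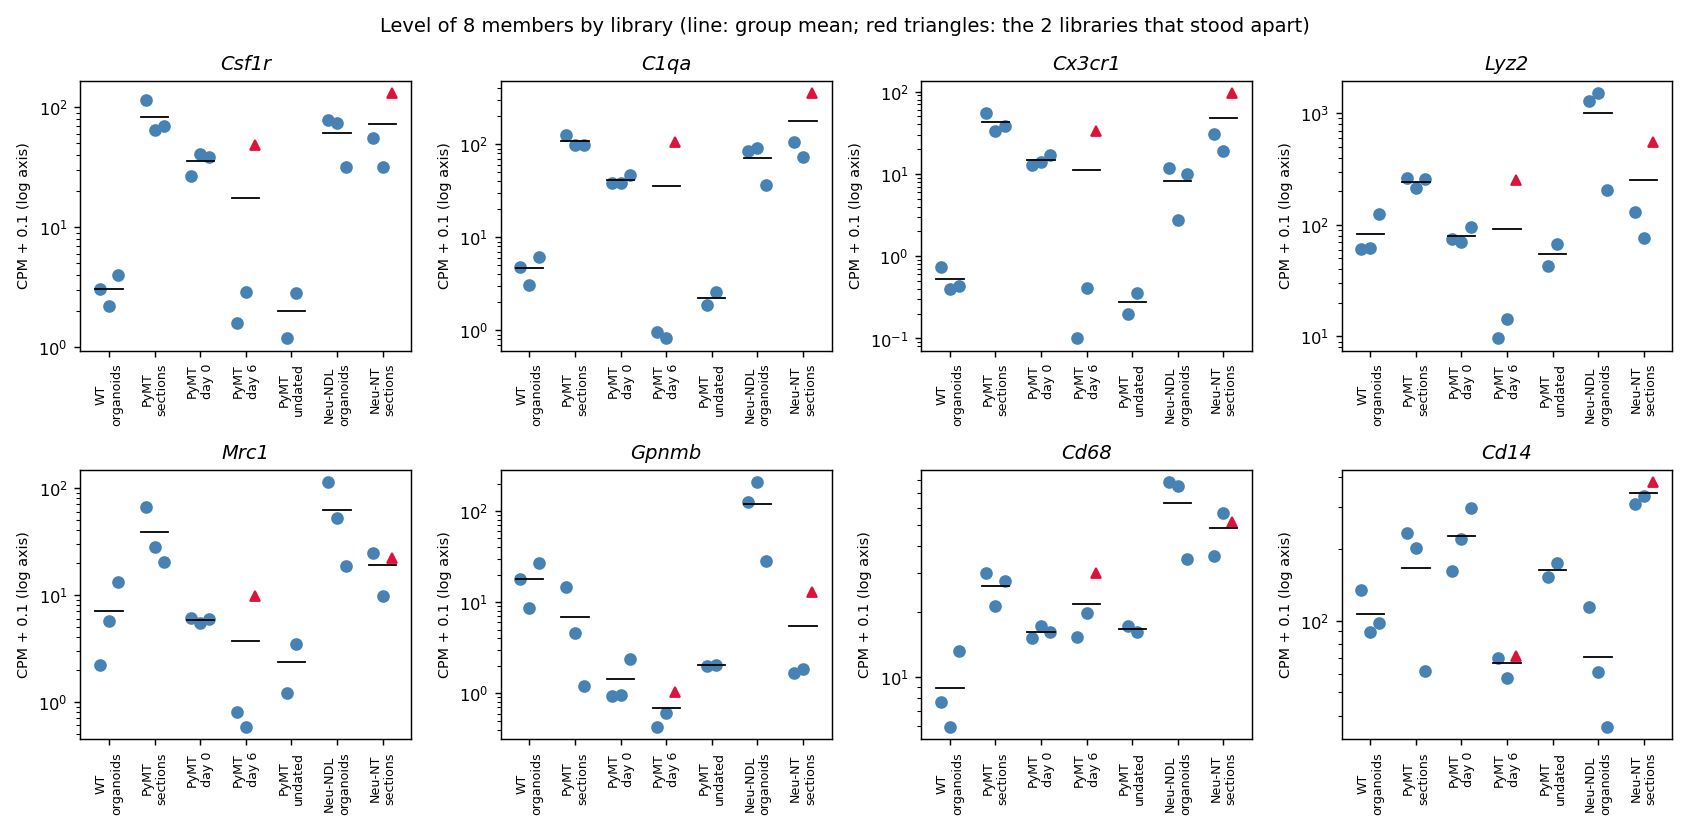
CPM + 0.1 of 8 members in each library on a log axis, with a line at the group mean; triangles mark the library titled day 6 replicate 3 and Neu-NT section replicate 3. Csf1r (1.07 to 2.77 CPM) and C1qa (0.717 to 2.51 CPM) are low in the other cultured PyMT libraries, while Cd68 is at 15.2 to 19.6 CPM and Cd14 at 57.6 to 175 CPM there.

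Of the scavenger receptors and phagosome genes, Mpeg1, which encodes the pore-forming protein perforin-2 of macrophages, rose from WT in all 3 of Neu-NDL organoids, PyMT sections and Neu-NT sections. It was at 9.45, 9.76 and 14.2 CPM in WT organoids, 242, 263 and 83.4 in Neu-NDL organoids, and 166, 105 and 156 in PyMT sections. Neu-NT sections had 103, 71.7 and 246 CPM, day 0 organoids 62.0, 87.2 and 79.4, and 6 day PyMT organoids 2.22, 1.67 and 96.9 (day 6) and 5.84 and 5.05 (undated). The log2 fold changes from WT were 4.14 (SE 1.11, adjusted p = 0.044), 3.68 (SE 1.08, adjusted p = 0.0383) and 3.66 (SE 1.08, adjusted p = 0.0278). Without Neu-NT section replicate 3 the rise in Neu-NT sections did not pass (2.98, SE 1.10, adjusted p = 0.0658). Mrc1 (the mannose receptor CD206), Msr1 (scavenger receptor A) and Cd163 (the hemoglobin scavenger receptor) passed in none of these 3 comparisons. In Neu-NDL organoids Msr1 was at 76.1, 50.9 and 11.4 CPM, against 3.15, 4.89 and 8.98 CPM in WT organoids (3.03, SE 0.86, adjusted p = 0.0546). Mrc1 was at 114, 52.6 and 18.4 CPM, against 2.12, 5.57 and 13 CPM (3.16, SE 1.00, adjusted p = 0.0787). Both had every Neu-NDL library above every WT library, with replicate 3 close to the highest WT library.

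The libraries of a group agreed poorly for Cd163. It was at 2.97, 2.07 and 3.14 CPM in WT organoids, 35.9, 8.04 and 7.92 in PyMT sections, 6.70, 2.22 and 12.5 at day 0 and 5.61, 27.5 and 36.0 in Neu-NDL organoids. The 6 day PyMT organoids had 5.15, 0.444 and 6.44 CPM (day 6) and 2.41 and 2.69 CPM (undated). Neu-NT sections had 14.3, 10.7 and 0.518 CPM, the lowest value in replicate 3, where 20 of the 35 members had their highest level of the series. In Neu-NDL organoids it was lowest in replicate 1, while 33 members were lowest in replicate 3.

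Gpnmb, a transmembrane glycoprotein of lipid-laden and phagocytic macrophages that other cells can also express, had another order of groups. It was at 18.1, 8.54 and 26.6 CPM in WT organoids, higher than in all PyMT organoids and all but the first PyMT section. PyMT sections had 14.7, 4.47 and 1.11 CPM, day 0 organoids 0.832, 0.859 and 2.31, and Neu-NT sections 1.59, 1.76 and 12.7. After 6 days of culture PyMT organoids had 0.326, 0.512 and 0.932 CPM (day 6) and 1.91 and 1.95 CPM (undated). Neu-NDL organoids, at 126, 208 and 27.9 CPM, had the 3 highest values of the series. Against WT it fell by 4.03 on the log2 scale in 6 day PyMT organoids (SE 0.86, adjusted p = 0.0198), a call lost with the undated organoids alone and without either undated library, WT replicate 1 or WT replicate 3. The values were 2.77 (SE 0.94, adjusted p = 0.0992) in Neu-NDL organoids, -1.38 (SE 0.90, adjusted p = 0.32) in PyMT sections and -1.73 (SE 0.92, adjusted p = 0.199) in Neu-NT sections.

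The Fc receptors Fcgr1 and Fcgr3 bind antibody-coated targets, and Fcer1g and Tyrobp (DAP12) are the adaptors through which they and Trem2, a lipid receptor, signal. All 5 rose in Neu-NT sections, and only Trem2 passed in Neu-NDL organoids and in PyMT sections. Tyrobp was at 2.84, 1.67 and 5.66 CPM in WT organoids, 40.6, 39.1 and 12.6 in Neu-NDL organoids, and 31.9, 37.4 and 26.3 in PyMT sections. It was at 22.8, 18.2 and 97.2 CPM in Neu-NT sections, 11.4, 14.9 and 15.5 at day 0, and 0.271, 0.342 and 30.6 (day 6) and 1.24 and 1.55 (undated) after culture. The WT range lay below every Neu-NDL, section and day 0 library. In Neu-NT sections Tyrobp rose by 3.77 (SE 1.24, adjusted p = 0.0444) and Fcgr1, the high-affinity IgG receptor, by 4.82 (SE 1.23, adjusted p = 0.0139). Without Neu-NT section replicate 3, Fcgr1 and Trem2 still passed there, while Tyrobp (2.60, SE 1.21, adjusted p = 0.14), Fcgr3 and Fcer1g did not. Trem2 was higher by 3.55 (SE 0.83, adjusted p = 0.0266), 3.52 (SE 0.83, adjusted p = 0.0173) and 3.45 (SE 0.83, adjusted p = 0.0103) in Neu-NDL organoids, PyMT sections and Neu-NT sections. In cultured PyMT organoids Trem2 was at 7.49 CPM in day 6 replicate 1 and 2.38 to 2.73 CPM in 3 others, against 8.84 to 13.4 CPM at day 0.

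Cd14, the coreceptor for bacterial lipopolysaccharide, did not follow the other members. It was at 134, 89.4 and 97.3 CPM in WT organoids, 233, 201 and 61.4 in PyMT sections, and 162, 220 and 296 at day 0. The 6 day PyMT organoids had 69.5, 57.6 and 71.0 CPM (day 6) and 152 and 175 CPM (undated), and Neu-NDL organoids 114, 60.7 and 35.7 CPM. Neu-NT sections were highest, at 309, 332 and 380 CPM. Cd14 made up 51.0 to 60.6% of the summed member CPM in the 4 cultured PyMT libraries and 1.77 to 4.32% in Neu-NDL organoids. It rose from WT in Neu-NT sections (log2 fold change 1.67, SE 0.43, adjusted p = 0.0141) and was the only member with a negative value in Neu-NDL organoids (-0.61, SE 0.42, adjusted p = 0.45). The other pattern receptors, Clec4d and Clec7a (dectin-1), passed in none of the comparisons with WT. Clec4d was at 18.7, 22.6 and 4.55 CPM in Neu-NDL organoids and at 0 to 2.64 CPM in all other libraries except Neu-NT section replicate 3 (5.07 CPM), and its value against WT was 3.27 (SE 1.00, adjusted p = 0.0705) in Neu-NDL organoids. Clec7a was below 3 CPM in every library but Neu-NT section replicate 3.

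C1qa, C1qb and C1qc encode the 3 chains of C1q, the recognition molecule of the classical complement pathway, and lie side by side on chromosome 4 (C1qb 136880129 to 136886187, C1qc 136889804 to 136893065 and C1qa 136895917 to 136898803, GENCODE M21). C1qa was at 4.65, 2.95 and 6.06 CPM in WT organoids, 127, 99.1 and 97.4 in PyMT sections, and 38.5, 38.6 and 46.7 at day 0. It was at 0.868 and 0.717 CPM in day 6 replicates 1 and 2, 106 in the library titled day 6 replicate 3, and 1.78 and 2.51 in undated organoids. Neu-NDL organoids had 85.6, 91.9 and 36.2 CPM and Neu-NT sections 106, 72.3 and 354 CPM. The 3 chains kept their proportions: the ratio of C1qb to C1qa was 0.529 to 0.952 and that of C1qc to C1qa 0.491 to 0.924 over all 20 libraries, although C1qa spanned 0.717 to 354 CPM. All 3 rose from WT in PyMT and in Neu-NT sections. C1qa rose by 4.57 (SE 1.31, adjusted p = 0.0348) and 5.29 (SE 1.35, adjusted p = 0.014), and in Neu-NDL organoids its value was 3.97 (SE 1.27, adjusted p = 0.0835).

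Cybb and Ncf1 encode the membrane subunit gp91phox and the cytosolic subunit p47phox of the phagocyte oxidase. Cybb was at 1.24, 2.31 and 3.41 CPM in WT organoids, 39.9, 95.8 and 12.8 in Neu-NDL organoids, 42.5, 23.0 and 27.1 in PyMT sections, and 25.2, 16.0 and 65.4 in Neu-NT sections. It stood at 12.8, 20.7 and 16.9 CPM at day 0 and at 0.342 to 1.44 CPM in the 4 cultured PyMT libraries. WT organoids lay below all of Neu-NDL organoids, sections and day 0. Cybb rose in Neu-NDL organoids (log2 fold change 4.42, SE 1.17, adjusted p = 0.0421), and both subunits rose in PyMT sections and Neu-NT sections. Neither passed in Neu-NT sections without replicate 3 (Cybb 3.15, SE 1.15, adjusted p = 0.0629, and Ncf1 2.75, SE 1.02, adjusted p = 0.0664). Ncf1 shares part of its locus with Gtf2ird2.

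Mice have 2 lysozyme genes, Lyz2, the macrophage form known from LysM-Cre mice, and Lyz1, the Paneth cell form of the gut. Both are on chromosome 10 (Lyz2 117277331 to 117282321, Lyz1 117287797 to 117292868, GENCODE M21), and their coding sequences, each of 447 bases, are 95.1% identical, with 22 differing bases and an identical run of 118 bases. A read from such a run cannot be assigned to either gene, so the split between them is uncertain. Bases 37 to 156 of the coding sequence, which hold 14 of the differences (capitals), are printed to show where reads can tell the genes apart.
Lyz1: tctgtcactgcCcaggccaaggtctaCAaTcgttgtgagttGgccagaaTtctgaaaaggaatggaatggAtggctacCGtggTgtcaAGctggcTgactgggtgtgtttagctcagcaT
Lyz2: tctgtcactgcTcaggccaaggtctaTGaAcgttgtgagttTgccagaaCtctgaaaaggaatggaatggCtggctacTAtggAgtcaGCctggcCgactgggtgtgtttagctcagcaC
Lyz2 was at 60.1, 61.4 and 126 CPM in WT organoids and 1301, 1511 and 207 CPM in Neu-NDL organoids (log2 fold change 3.61, SE 1.08, adjusted p = 0.0652). Its level was 262, 213 and 258 CPM in PyMT sections, 74.7, 70.7 and 94.7 at day 0, 9.49, 14.4 and 251 (day 6) and 42.9 and 67.0 (undated) after culture, and 131, 76.0 and 548 in Neu-NT sections. Per kilobase of exon it was the highest member in Neu-NDL organoids, at a mean of 765 CPM per kb against 68.5 for C1qa. Lyz1 was at 0.413, 0.171 and 0.707 CPM in WT organoids and at 15.9, 170 and 2.12 in Neu-NDL organoids, and at most 5.02 CPM in any other library. Its rise (7.20, SE 1.58, adjusted p = 0.0206) was the largest of the members called in Neu-NDL organoids and rested mostly on replicate 2. Without that replicate it was not called.

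Within PyMT tumors, day 0 organoids lay below sections in most members, without passing the test. In 30 of the 35 members all 3 day 0 libraries lay below all 3 section libraries, where 10.6% of all genes did so. The members' median level at day 0 was 41.9% of the section mean, and the median log2 fold change was -1.25 (all genes -0.02). The edgeR test over all 20 libraries called none of the members (0.016% of all genes lower), with 4 members (11.4%) at an unadjusted p under 0.05, against 6.95% of all genes, and none called by DESeq2. In a fit of only these 6 libraries 11 members were lower (0.519% of all genes). Mrc1 was at 66.7, 28.0 and 20.2 CPM in sections and at 5.98, 5.31 and 5.79 at day 0 (-2.75 on the log2 scale, SE 0.98, adjusted p = 0.482). Cd14 was the only member whose day 0 mean lay above the section mean, at 137% of it. Fibroblast markers, 719 to 989 CPM summed at day 0 and 1978 to 5985 CPM in sections, were lower as well, and endothelial markers, at 117 to 250 and 128 to 204 CPM, overlapped. The part of these cells in the result was not tested.

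After 6 days of culture PyMT organoids were at a few percent of the section level in most members, if the library titled day 6 replicate 3 is set aside. In the 4 other libraries (day 6 replicates 1 and 2, and both undated) the median member was at 3.68% of the PyMT section mean, and 26 of 35 members were under 10%. Cx3cr1 was lowest, at 0.395%, and C1qb, C1qc and C1qa were at 1.13, 1.16 and 1.36%. Cd14 (68.6%) and Cd68 (64.9%) were the highest, followed by Clec4d, Gpnmb, Cd163, Trem2, Msr1, Lyz2 and Itgam, at 28.2 to 11.7%. The library titled day 6 replicate 3 had a median of 73.3% and no member under 10%. Day 0 organoids had 1 member under 10% (Lyz1).

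**Figure D4:**
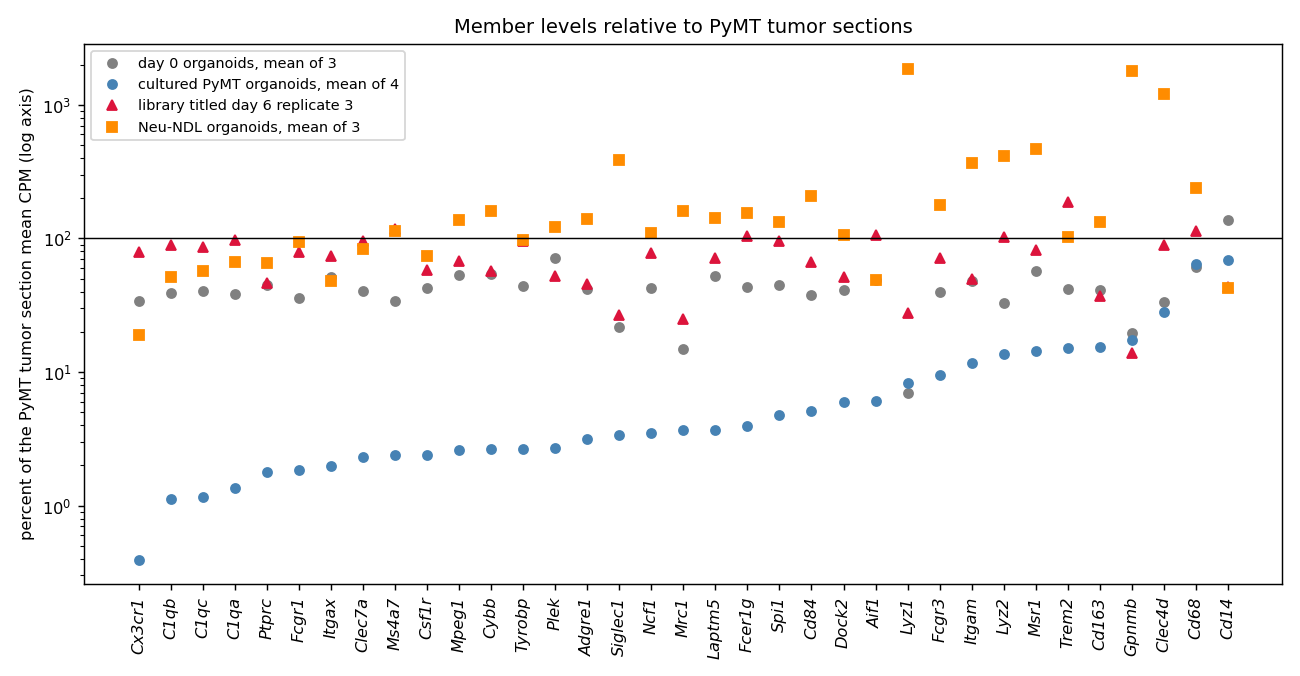
Mean CPM of each member as a percentage of its mean in PyMT tumor sections (log axis), in order of the 4 cultured PyMT libraries. Their median is 3.68%, against 41.9% at day 0, 73.3% in the library titled day 6 replicate 3 and 133% in Neu-NDL organoids.

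Day 6 organoids differed from day 0 in none of the 35 members in the fit over all libraries (0.46% of all genes lower), with 1 member (2.86%) at an unadjusted p under 0.05, against 15.1% of all genes. DESeq2 called Cd14 lower. A fit pairing replicate numbers called none of 15618 genes, left 1 member untested and had a median log2 fold change of -2.43 over the members. Without the library titled day 6 replicate 3, 28 members were lower (7.06% of all genes) and none higher, and the median log2 fold change went from -0.61 to -4.32. The log2 fold changes were then -4.04 (SE 0.67, adjusted p = 0.00179) for Csf1r, -6.32 (SE 1.02, adjusted p = 0.00154) for Cx3cr1, -5.71 (SE 0.73, adjusted p = 0.000471) for C1qa and -5.95 (SE 0.64, adjusted p = 0.000164) for Itgax. The 7 members not called were Cd68, Cd163, Gpnmb, Trem2, Clec4d, Clec7a and Lyz1. With the library in, the value for Csf1r was -1.01 (SE 0.88, adjusted p = 0.648). In that library endothelial markers summed to 190 CPM, against 5.50 to 6.88 CPM in the other 4, and fibroblast markers to 2760 CPM against 52.6 to 160 CPM. T, B and NK cell markers summed to 5.24 CPM against 0.171 to 0.335 CPM. The 15 members lower than in WT organoids without this library included Adgre1, Mrc1, Mpeg1 and the 3 C1q genes.

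Neu-NDL organoids differed from PyMT organoids under the same 6 days of culture. In the fit over all libraries 22 members were higher in Neu-NDL organoids and none lower (4.7% of all genes higher), with a median log2 fold change of 3.42. All members of 4 roles passed: the transcription factor Spi1, the 4 pan-leukocyte genes, both oxidase subunits and both lysozymes. The scavenger group passed in 4 of 5 (Mrc1, Msr1, Gpnmb and Mpeg1), and none of the 3 C1q genes did (C1qa 3.02, SE 1.04, adjusted p = 0.088). The largest differences were in Lyz1 (7.21, SE 1.34, adjusted p = 0.00954), Gpnmb (6.80, SE 0.97, adjusted p = 0.00304) and Siglec1 (5.87, SE 0.83, adjusted p = 0.00304). Without the library titled day 6 replicate 3, 34 members were higher (10.6% of all genes), with a median of 5.49 and Cd14 as the exception (-0.54, SE 0.40, adjusted p = 0.38). The 3 C1q genes were then among them (C1qa 5.78, SE 0.53, adjusted p = 2.77e-05).

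That count changed with the fit and with single libraries. A fit of only these 8 libraries called Gpnmb alone among the members and 11 of 17164 genes in all (0.0641%), and 26 members had an unadjusted p under 0.05 there. Leaving out undated replicate 1 left 3 calls (Cd68, Siglec1 and Gpnmb), undated replicate 2 left 6 and Neu-NDL replicate 2 left 10. With the day 6 or the undated libraries alone 6 and 9 members were called. Calls fell among all genes as well, also without either undated library. In either direction they were 3.05% of all genes without Neu-NDL replicate 2, and 0.701 and 3.45% with the day 6 or undated libraries alone. With every library they were 7.12%. Neu-NDL replicate 3 had the lowest level of its group in 33 of the 35 members, at a median of 0.368 of the mean of the other 2, and still lay above the 4 cultured PyMT libraries in Csf1r, Spi1, Ptprc, Mpeg1 and C1qa. Fibroblast markers summed to 156 to 2939 CPM in Neu-NDL organoids and to 52.6 to 160 CPM in the 4 cultured PyMT libraries. Endothelial markers summed to 6.26 to 52.8 and 5.50 to 6.88 CPM. Their part in the difference was not tested.

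None of the 35 members passed between Neu-NT and PyMT tumor sections, where 9.7% of all genes were higher or lower. With edgeR 2 members (5.71%) had an unadjusted p under 0.05, against 26.1% of all genes, DESeq2 called none, and the median log2 fold change was 0.23. The smallest adjusted p belonged to Cd68 (0.88, SE 0.33, adjusted p = 0.107). The SE of the other members was up to 1.34, so even differences larger than that could be missed. Lyz1, at -2.55 on the log2 scale, was not called. Without Neu-NT section replicate 3 the median was -0.63 and again none passed.

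Beyond their amount, some of the members were in different proportions in cultured and uncultured samples. Taken relative to Csf1r in the same library, as ratios of CPM, Cx3cr1 was at 0.34 to 0.726 in the 9 section and day 0 libraries and at 0.0354 to 0.316 in Neu-NDL organoids. It was at 0.0866 to 0.221 in WT organoids and 0 to 0.111 in 4 cultured PyMT libraries. The reverse held for Itgam, at 0.191 to 0.362 of Csf1r in sections and at day 0, 0.702 to 1.41 in Neu-NDL organoids, 1.34 to 2.28 in WT organoids and 0.531 to 2.06 in the 4 cultured PyMT libraries. Gpnmb was at 0.0159 to 0.127 in sections and at day 0 and 0.185 to 6.80 in the WT, Neu-NDL and 4 cultured PyMT libraries. Lyz2 was at 1.74 to 4.18 in sections and at day 0, 6.61 to 20.5 in Neu-NDL organoids, 20.6 to 32.1 in WT organoids and up to 40 in the 4 cultured PyMT libraries (median 15.7, all above 4.18). For these 4 genes the cultured and uncultured ranges did not overlap, with the library titled day 6 replicate 3 set aside. That library fell in the uncultured ranges for 3 of them (Cx3cr1 0.690, Itgam 0.210, Gpnmb 0.0193) and in the cultured PyMT range for Lyz2 (5.21). Its Trem2 ratio of 0.979 was also outside the 0.156 to 0.557 of sections and day 0 and within the 0.914 to 5.11 of the 4 cultured PyMT libraries. Siglec1 was at 0.0422 to 0.388 in sections and at day 0, 0.0988 to 0.375 in the 4 cultured PyMT libraries, 0.449 to 0.931 in Neu-NDL organoids and 1.01 to 1.37 in WT organoids, so that only the cultured PyMT range overlapped the uncultured one. C1qa was at 0.953 to 2.70 in sections and at day 0, 1.09 to 1.25 in Neu-NDL organoids, 1.42 to 1.59 in WT organoids and 0.259 to 1.66 in the 4 cultured PyMT libraries. Its cultured and uncultured ranges thus overlapped. These ratios are descriptions, chosen after the values were seen, and rest on 27 to 81 counts of Csf1r in the 4 cultured PyMT libraries. Cx3cr1 had only 0 to 9 counts there and Gpnmb 6 to 57.

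**Figure D5:**
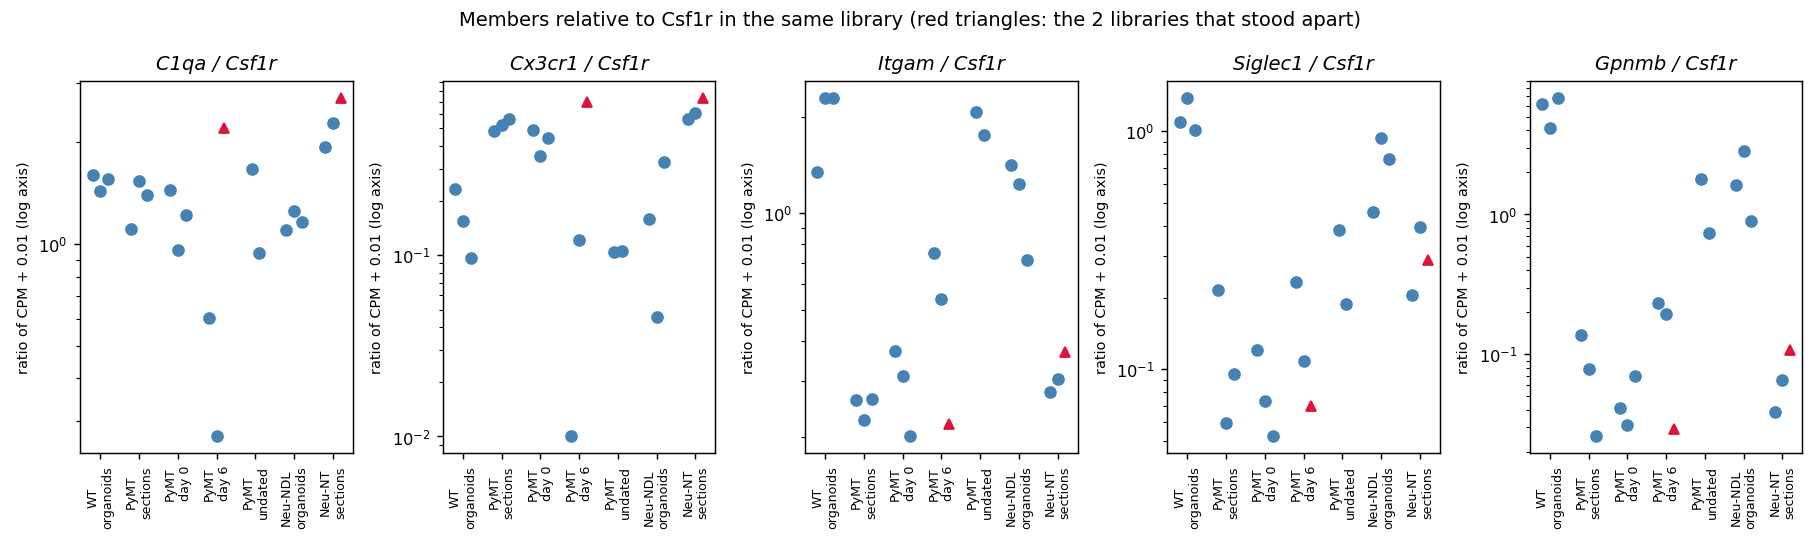
Ratio of the CPM of 5 members to that of Csf1r in each library, on a log axis with 0.01 added; triangles mark the 2 libraries that stood apart. Cx3cr1 per Csf1r is 0.34 to 0.726 in sections and at day 0 and at most 0.316 in WT, Neu-NDL and 4 of the 5 cultured PyMT libraries, and Itgam and Gpnmb show the opposite order.

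The other genes of these pathways were read from lists drawn up beside the members, and their counts stand beside the shares of all genes higher than in WT given above (2.47% in Neu-NDL organoids, 6.45% in PyMT sections and 10.5% in Neu-NT sections). Of 12 tested growth factor and recruitment genes, 1 rose from WT in Neu-NDL organoids, Csf2rb, the shared beta chain of the GM-CSF and IL-3 receptors (log2 fold change 3.98, SE 0.93, adjusted p = 0.0266). In PyMT sections 4 rose (Ccr2, Csf3r, Flt3 and Csf2rb) and Csf3 fell. These 4 also rose in Neu-NT sections, where Kit fell. The ligand Csf1 was at 62.1 to 77.5 CPM in WT organoids, 32.7 to 83.4 CPM in the 5 cultured PyMT libraries and 71.9 to 220 CPM in Neu-NDL organoids. Csf1 (1.38, SE 0.33, adjusted p = 0.0233) and the monocyte chemokine Ccl2 (2.66, SE 0.70, adjusted p = 0.0347) were higher in Neu-NDL than in PyMT organoids, 2 of the 4 of 12 that were. The others were Csf2rb (3.90, SE 0.79, adjusted p = 0.0131) and Kit. Ccl2 was uneven, at 66.1, 14.3 and 4.69 CPM in Neu-NDL organoids. Replicate 3 lay within the 2.33 to 8.55 CPM of the 5 cultured PyMT libraries, and WT organoids had 2.76 to 14.1 CPM. Ccr2, the receptor for Ccl2 on monocytes, was at 3.84 to 21.6 CPM in PyMT sections, 1.80 to 24.2 CPM in Neu-NT sections and 0.225 to 2.22 CPM in Neu-NDL organoids.

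Of the 12 myeloid transcription factors none passed in Neu-NDL against WT organoids, and Irf8, Batf3 and Irf5 rose in both kinds of sections. Irf8 rose by 3.10 (SE 0.77, adjusted p = 0.021) in PyMT and 5.21 (SE 0.85, adjusted p = 0.00118) in Neu-NT sections. Among 14 further integrin and phagocyte signaling genes 3 rose in Neu-NDL organoids (Itgal, Itgb2 and Lcp1), 5 in PyMT sections and 7 in Neu-NT sections. Lcp1, which encodes the actin-bundling protein L-plastin, also rose in 6 day PyMT organoids (1.81, SE 0.24, adjusted p = 0.00144), beside 1.73 (SE 0.26, adjusted p = 0.00493) in Neu-NDL organoids. Itgb2, the beta chain that pairs with Itgam and Itgax, rose by 3.61 in Neu-NDL organoids (SE 0.88, adjusted p = 0.0311). Of 8 complement genes and Fc receptors, 3 rose there (C5ar1, Fcgr2b and Cfp). Cd74, the invariant chain of MHC class II, was the only one of 13 tumor macrophage state genes that rose in Neu-NDL organoids (4.88, SE 1.32, adjusted p = 0.0459), and it rose in both kinds of sections among 5 of 13. In PyMT sections 2 of the 13 fell, Mmp12 (-3.30, SE 0.94, adjusted p = 0.0338) and Nos2 (-2.72, SE 0.80, adjusted p = 0.0376).

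Markers of lymphocytes, dendritic cells, mast cells and eosinophils were low, while the sum of the neutrophil list was not low in sections. T, B and NK cell markers summed to 0.918 to 3.35 CPM in WT organoids, 2.08 to 9.37 in Neu-NDL organoids, 4.67 to 14.8 in PyMT sections and 3.82 to 30.9 in Neu-NT sections. Of 11 tested, none rose from WT in Neu-NDL organoids, 5 in PyMT sections and 6 in Neu-NT sections, Cd8a with the largest change in both. Of 10 dendritic cell markers none rose in Neu-NDL organoids, 5 in PyMT sections and 6 in Neu-NT sections. Irf4 fell in Neu-NDL organoids (-3.68, SE 0.94, adjusted p = 0.0355) and in 6 day PyMT organoids (-4.41, SE 0.87, adjusted p = 0.0128). The defining neutrophil gene Ly6g was at 0 counts in WT and Neu-NDL organoids and at most 0.189 CPM elsewhere. Most of the summed level of the neutrophil list in PyMT sections was Ltf, which mammary epithelium also makes (1242 to 2330 CPM in PyMT sections, 12.3 to 34.6 CPM in WT organoids). The list summed to 24.0 to 53.5 CPM in WT organoids, 1264 to 2335 in PyMT sections and 643 to 29309 in Neu-NT sections. It summed to 15.7 to 68.6 CPM in Neu-NDL organoids and 2160 CPM in the library titled day 6 replicate 3. Of its 10 tested genes, 3 rose in PyMT sections (Retnlg, Ltf and Cxcr2) and 4 in Neu-NT sections (Ltf, Retnlg, Cxcr2 and S100a9). None rose in Neu-NDL organoids, where Camp fell. Mast cell and eosinophil markers summed to at most 22.9 CPM in any library. The part of these cells in the levels of the 35 members was not tested.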

How the data were processed

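Polyadenylated RNA of 20 libraries was sequenced, and the authors deposited a table of read counts per gene for each library. The submitters' processing notes name CASAVA, FastQC, STAR, HTSeq and DESeq2 and the genome mm10, without versions. Which annotation was counted, and with what strand option and mode, is not given in the sources used here. Groups came from the sample titles and characteristics. IDs were named from GENCODE M21 (44671 of 45318 matched). Rows that name no gene were left out of library sizes; they held 5.60 to 12.3% (no feature) and 4.68 to 7.39% (ambiguous) of the reads.

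Counts were fitted in R 4.3.3 with edgeR 4.0.16 (TMM factors, filterByExpr, robust quasi-likelihood fit, 1 coefficient per group, all 20 libraries, 13 residual degrees of freedom). P-values were adjusted by Benjamini-Hochberg over 18698 genes, and a call is an adjusted p under 0.05. The SE of a log2 fold change was taken from the F statistic of its test. The 6 day PyMT group is the mean of the day 6 and undated coefficients. The fit was tested on simulated data with known changes.

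The members and the companion lists were chosen with earlier results of these data known. Values in every library are given for the member of each role with the highest mean CPM, members whose call departed from their role, the largest rise and fall called in each comparison, and members whose libraries stood apart. Of the companion lists up to 4 called genes were named by size of change, and further genes were chosen after their values were seen. The alternatives were DESeq2 1.42.0, RLE or no normalization factors, no filter, only the libraries compared, a replicate block, each library left out, both libraries that stood apart left out, the 2 like Neu-NT sections summed, and the day 6 or undated organoids alone. Same-numbered day 0 and day 6 libraries deviated together (correlations over genes of 0.287, 0.428 and 0.317). Correlations between libraries of different numbers were not computed, and the third value uses the library titled day 6 replicate 3. Replicates 2 of Neu-NDL and of PyMT day 6 organoids, from different tumor models, had 0.275. Whether the numbers pair libraries was therefore not settled. The main fit has no block, and the fit with a replicate block, which called no gene between day 6 and day 0, is an alternative. Intervals were not computed for CPM; a count of 0 allows up to 3 counts. Some genes of the companion lists are not reported here.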

Additional observations from a re-analysis of the deposited data

Results flagged for a closer look

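Over the 5 PyMT libraries cultured for 6 days, the summed CPM of the 35 members was 1116 in the library titled day 6 replicate 3 and 113 to 310 in the others. The gap to the next library was 0.804 of the whole range, above the critical value of 0.71 for 5 samples (Dixon's criterion). For the CPM of 27 of the 35 members taken singly, the same library was apart from the others by that criterion. On the mean log2 CPM of the 35 members the criterion was not met, with 3.88 in that library and -0.671 to 0.825 in the others. Chance puts about 1 in 20 groups past it, and the 27 values come from 1 library. That library's nearest neighbor in the series was PyMT tumor section replicate 3.

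The change from WT organoids differed between Neu-NDL and 6 day PyMT organoids in 22 of the 35 members, by the test of the difference itself (edgeR, Benjamini-Hochberg adjusted p under 0.05), higher in Neu-NDL organoids in all 22. Since WT is the same in both, this is the direct comparison of the 2 cultured tumor models. The 5.87 of Siglec1 and 6.80 of Gpnmb on the log2 scale had the smallest adjusted p (0.00304 each).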

How the results depend on the processing

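No member's call turned direction under any alternative. The share of all genes called, in either direction, is given in brackets after each count, or after the ranges for the fits with 1 library left out. In the fits of the report it was 4.52, 3.89, 12.5 and 19% for Neu-NDL, 6 day PyMT, PyMT sections and Neu-NT sections against WT, 0.444% between day 0 and sections, 0.626% between day 6 and day 0, 7.12% between Neu-NDL and PyMT organoids and 9.7% between the sections. With DESeq2 32 members (10.9%) were called in Neu-NDL against WT organoids (11 with edgeR), 3 (8.83%) in 6 day PyMT organoids (1), 24 (18.3%) in PyMT sections (15) and 1 (4.47%) between day 6 and day 0 (0). Without the filter on low counts the calls were 6 (1.93%) in Neu-NDL and 7 (4.96%) in PyMT sections against WT, 14 (8.95%) in Neu-NT sections (25) and 12 (2.61%) in Neu-NDL against PyMT organoids (22). With only the libraries compared they were 31 (11.3%) in Neu-NDL and 29 (28.8%) in PyMT sections against WT, 11 (1.21%) between day 0 and sections and 1 (0.0641%) between Neu-NDL and PyMT organoids. The replicate block rests on shared numbers, and whether these pair the libraries was not settled. With it the calls were 6 (2.36%) and 27 (24%) for Neu-NDL organoids and PyMT sections against WT, and 2 (0.538%) between day 0 and sections. They were 0, of 35 members and of all genes, between day 6 and day 0 and between Neu-NDL and PyMT organoids. Without the libraries titled day 6 replicate 3 and Neu-NT section replicate 3 they were 33 (14.5%) in Neu-NDL, 22 (16.5%; 1 higher, 21 lower) in 6 day PyMT and 29 (27%) in PyMT sections against WT, 1 (1.31%) between day 0 and sections, 29 (18.8%) between day 6 and day 0, 34 (24.3%) between Neu-NDL and PyMT organoids and 1 (23.2%) between the sections (Adgre1, lower in Neu-NT). The undated organoids alone gave 0 (0.471%) against WT and 9 (3.45%) against Neu-NDL, and the day 6 organoids alone 6 (0.701%) against Neu-NDL. Leaving out 1 library at a time gave 1 to 8 calls for Neu-NDL, 0 to 15 for 6 day PyMT, 0 to 10 for PyMT sections and 4 to 24 for Neu-NT sections against WT, 0 between day 0 and sections, 0 to 28 between day 6 and day 0, 3 to 34 between Neu-NDL and PyMT organoids, and 0 between the sections. In these fits the share of all genes called was 0.619 to 6.95% for Neu-NDL, 2.83 to 9.27% for PyMT sections and 9.85 to 21.8% for Neu-NT sections against WT. It was 0.254 to 0.397% between day 0 and sections, 0.219 to 13% between day 6 and day 0 and 3.89 to 16.6% between the sections. With both undated libraries kept, it was 0.948 to 10.8% for 6 day PyMT against WT and 3.05 to 16.6% between Neu-NDL and PyMT organoids. The cause of these shifts was not tested. Depth limits the lowest members: a count of 0 allows 0.158 CPM, before TMM scaling, in day 6 replicate 1.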
